A study of Homo sapiens with 8 samples.

Results

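Fibroblast growth factor (FGF) signaling was examined here through 8 genes of 26235 counted: the receptors FGFR1, FGFR2, FGFR3 and FGFR4, the kinase-less receptor FGFRL1, the coreceptor KLB, and the family members FGF11 and FGF17. They were picked by name as a set of FGF receptors, a klotho and FGFs, with earlier results of these data known, and were found in the count files by gene symbol. The study that reported the data had named FGF11 and FGF17 as raised by E2, and FGFR2 as lowered by PPT and DPN. All 8 passed the filter on low counts, FGF17 through the E2 libraries and FGFR2 through the Control and E2 libraries, where each is high. The cells were HepG2, a single human liver cancer line labelled as hepatocellular carcinoma, grown without phenol red in charcoal-stripped serum and then starved of serum in every group. Control cells received DMSO, the vehicle. The other groups received estradiol (E2), a steroid, or PPT or DPN, the nonsteroidal agonists selective for estrogen receptor α and β, each at 1 µM for 48 h. Each group held 2 libraries (n = 2), and nothing in the labels says that these came from separate cultures, so p-values measure the spread between these samples only. The question put to these genes was how the 3 compounds changed their mRNA against vehicle and how the compounds differed from each other.

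FGF receptors are tyrosine kinases of the cell surface that pair up when an FGF binds them together with heparan sulfate, and they pass the signal on through adaptor proteins to the RAS-ERK cascade. In hepatocytes FGFR4 works with KLB (β-klotho), which holds the gut hormone FGF19 on the receptor, and this pair is known for shutting down bile acid synthesis from cholesterol. FGFRL1 binds FGFs but lacks the kinase part, and FGF11 belongs to a branch of the family that stays inside the cell, whereas FGF17 is secreted.

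The 250 bases before the start of transcription are shown for the coreceptor gene KLB, for the most strongly lowered receptor gene, FGFR2, and for FGF11, which rose with E2. They were read 5′ to 3′ from RefSeq on GRCh38.p14, at the outermost start listed for each gene. The window of KLB lies at chr4:39406680-39406929 on the plus strand, that of FGFR2 at chr10:121598445-121598694 on the minus strand and that of FGF11 at chr17:7438048-7438297 on the plus strand. Capitals mark the estrogen half-site, searched as GGTCA on both strands.
KLB: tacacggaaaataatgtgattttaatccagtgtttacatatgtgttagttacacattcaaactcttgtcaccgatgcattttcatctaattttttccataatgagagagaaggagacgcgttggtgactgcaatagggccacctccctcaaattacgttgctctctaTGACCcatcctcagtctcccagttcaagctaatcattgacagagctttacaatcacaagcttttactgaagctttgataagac
FGFR2: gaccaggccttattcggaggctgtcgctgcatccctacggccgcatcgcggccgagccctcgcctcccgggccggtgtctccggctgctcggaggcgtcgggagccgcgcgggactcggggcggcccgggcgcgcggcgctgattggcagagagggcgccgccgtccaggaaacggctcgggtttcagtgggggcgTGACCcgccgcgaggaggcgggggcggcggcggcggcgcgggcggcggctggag
FGF11: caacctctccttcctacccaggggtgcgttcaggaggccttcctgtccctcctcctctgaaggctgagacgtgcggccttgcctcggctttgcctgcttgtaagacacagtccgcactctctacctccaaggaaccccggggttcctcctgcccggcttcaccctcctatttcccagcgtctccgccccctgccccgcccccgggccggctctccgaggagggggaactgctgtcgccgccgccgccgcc
KLB and FGFR2 each held 1 half-site, which began 83 and 54 bases before the start, and FGF11 held none. The half-site was present in 32.6% of all 35097 promoter windows of the same length, and none was found in those of FGFR3, FGFR4 and FGFRL1. The full estrogen palindrome, in which the half-site and its mirror image are parted by 3 bases, occurred in 0.0399% of all windows and in none of these 6. The KLB window had a GC content of 39.2%, against 78.4% in FGFR2 and 68.0% in FGF11. It had no Sp1 motif (GGGCGG, in 42.6% of all windows), of which FGFR2 had 3 and FGF11 had 2. FGF11 held the core of the hypoxia response element (ACGTG, in 18.5% of all windows) once, beginning 182 bases before the start. FGFRL1 held 2 overlapping matches of it, beginning 28 and 27 bases before the start, and KLB, FGFR2, FGFR3 and FGFR4 held none. The AP-1 motif (TGANTCA, in 6.57% of all windows) was in none of the 6. These are matches of letters, not sites at which binding was measured.

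The libraries held 25103160 to 29670814 counts in genes. The TMM factors, which correct the library size for a few genes that take up many reads, were 0.891 and 0.900 with E2 and 1.03 to 1.05 elsewhere. Markers of hepatocytes or hepatoma were abundant in every library, and their summed level moved with treatment: 54357 to 55636 CPM (a gene's counts relative to the TMM-scaled library total) with Control, 79592 to 83828 with E2, 37734 to 41249 with PPT and 38328 to 39227 with DPN. Of these 10 markers, 6 rose and 2 fell with E2, 2 rose and 7 fell with PPT, and 1 rose and 8 fell with DPN. AFP, the most abundant of them with Control, had means of 15714 CPM with Control, 10674 with E2, 6012 with PPT and 6502 with DPN. ALB did not pass with PPT or DPN (edgeR adjusted p = 0.179 and 0.192). Sums over markers of endothelium, fibroblasts, leukocytes and red cells stayed between 0 and 33.4 CPM in all libraries, with HBB at 0. In bulk RNA, fewer cells of a type and less RNA per cell cannot be told apart. Of the receptors through which the compounds are named, ESR1 had 0 counts in all 8 libraries, below the limit of 3 counts that 0 allows, and ESR2 had 14 counts in the 2 Control libraries together, 2 with E2, 11 with PPT and 3 with DPN, too few to test. GPER1, the G protein-coupled estrogen receptor, was detected at 16.2 ± 0.05 CPM (SD, n = 2) with Control, 21.8 ± 1.45 with E2, 6.14 ± 0.45 with PPT and 11.3 ± 1.32 with DPN.

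All levels below are CPM scaled by TMM, and a gene changed where the edgeR quasi-likelihood test over all 15460 tested genes gave a Benjamini-Hochberg adjusted p under 0.05. E2 raised KLB, FGF11 and FGF17 and lowered FGFR1, FGFR3 and FGFRL1, so 3 of the 8 genes rose and 3 fell, where 30.8% of all tested genes rose and 31.8% fell. FGFR2 and FGFR4 were near the threshold, and 5 fell and 3 rose with no filter, with edgeR on 4 libraries or without the DPN replicate 1 library, while 5 fell and 2 rose with library size alone. PPT lowered FGFR1, FGFR2, FGFR3, FGFR4 and KLB, so 5 fell and none rose, where 22.8% of all genes fell and 22.9% rose. DPN lowered the same 5 genes and FGFRL1, so 6 fell and none rose, where 24.1% of all genes fell and 24.4% rose. With the stricter call that the study used, a log2 fold change over 1.5 in size and an adjusted p under 0.01, E2 kept FGF11 and FGF17, PPT kept FGFR2 and KLB, and DPN kept FGFR2. Of all genes, that call took in 10.1% in the E2 comparison, 4.76% in that of PPT and 3.95% in that of DPN. Of the genes called in this paragraph, FGF17 entered the test through its level with E2, and FGFR2 through Control and E2. Their reads in each library, given below, are the plainer measure. The 3 comparisons share the same 2 Control libraries. Because the 8 genes were chosen with earlier results of these data known, the shares over all genes are given for scale and do not test the set.

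**Figure D1:**
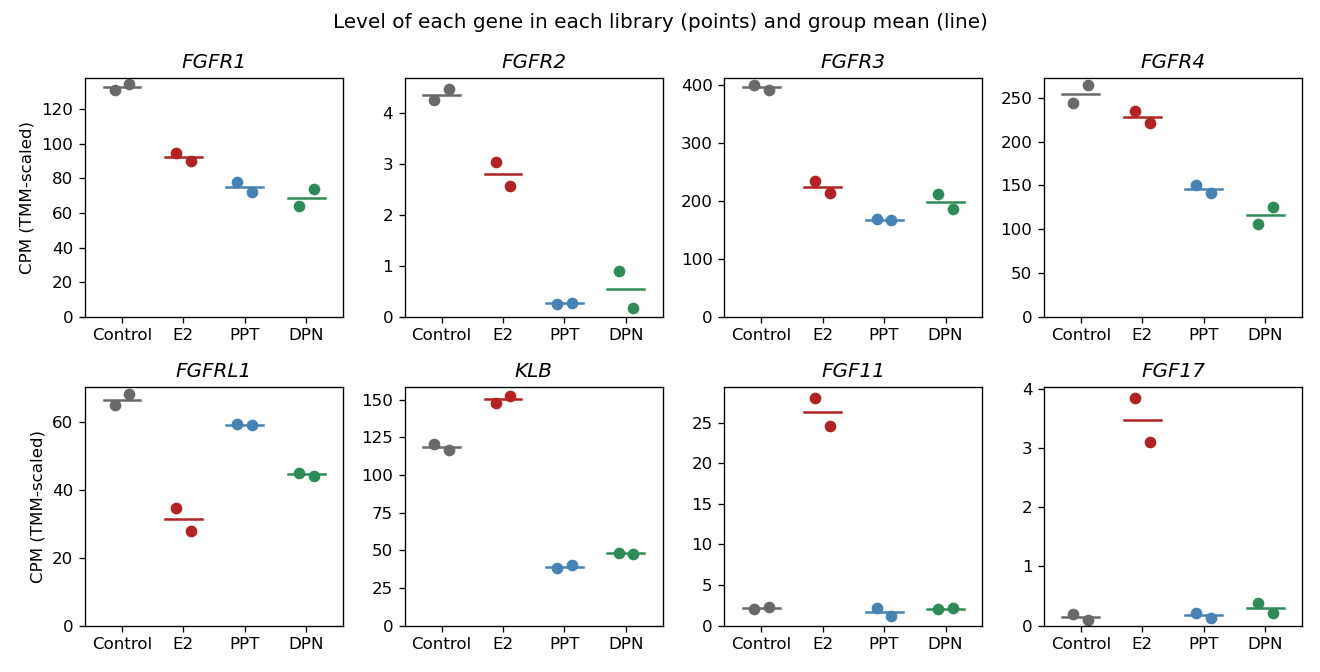
CPM (TMM-scaled, vertical axes from 0, one scale per gene) of the 8 genes in the 2 libraries of each group (points) with the group mean (line). FGFR1, FGFR3 and FGFR4 are highest with Control, KLB is highest with E2 at 148 and 153 CPM, and FGF11 and FGF17 stand out only in the 2 E2 libraries.

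FGFR3, the receptor best known for restraining growth of cartilage in the skeleton, was the most abundant member in Control cells, also per length. It was at 399.5 and 392 CPM in the 2 Control libraries, 234 and 214 with E2, 168 and 167 with PPT, and 211 and 186 with DPN. Every treated library was below both Control libraries, and the PPT libraries were the lowest. Expression of FGFR3 fell with E2 (log2 fold change -0.82, SE 0.07, edgeR adjusted p = 6.98e-11), with PPT (-1.24, SE 0.07, adjusted p = 3.51e-14) and with DPN (-0.996, SE 0.07, adjusted p = 3.59e-12).

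FGFR4, the main FGF receptor of hepatocytes, showed 245 and 264 CPM with Control, 235 and 221 with E2, 150.3 and 141 with PPT, and 106 and 125 with DPN. The PPT and DPN libraries lay far below Control, while the E2 libraries lay just below it. The fall was -0.80 on the log2 scale with PPT (SE 0.08, adjusted p = 1.06e-09) and -1.14 with DPN (SE 0.08, adjusted p = 1.47e-12). With E2 the log2 fold change was -0.16 (95% interval -0.31 to -0.01, adjusted p = 0.0668), which did not pass the edgeR test over the 8 libraries. That call turned on the settings, since edgeR on the 4 E2 and Control libraries alone gave -0.16 with an adjusted p of 0.0356.

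FGFR1, through which the endocrine factor FGF21 signals together with KLB, was at 131 and 134 CPM with Control, 94.9 and 90.1 with E2, 77.8 and 72.2 with PPT, and 63.9 and 73.9 with DPN. No treated library reached the Control level, and PPT and DPN libraries overlapped. FGFR1 fell with E2 (-0.52, SE 0.08, adjusted p = 1.46e-06), PPT (-0.82, SE 0.08, adjusted p = 1.01e-09) and DPN (-0.95, SE 0.08, adjusted p = 8.15e-11).

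FGFR2, whose splice forms divide between epithelium and mesenchyme, was scarce in HepG2 cells. It had 132 counts in each Control library, 68 and 61 with E2, 7 and 8 with PPT, and 26 and 5 with DPN, which is 4.26 and 4.47, 3.04 and 2.57, 0.257 and 0.268, and 0.901 and 0.172 CPM. The few reads left with PPT and DPN set the width of the errors, and the 2 DPN libraries differed more from each other than those of any other group. FGFR2 fell to 0.0611 of Control with PPT (log2 fold change -4.03, SE 0.46, adjusted p = 3.76e-08) and to 0.124 with DPN (-3.02, SE 0.41, adjusted p = 6.67e-07). As the gene entered the test through its level with Control and E2, the reads of each library given above are the plainer measure. The size of the fall with DPN depended on the library, at -4.63 without the DPN replicate 1 library (adjusted p = 1.8e-07) and -2.27 without the DPN replicate 2 library (adjusted p = 4.59e-05). With E2 the change of -0.64 (95% interval -1.34 to 0.06) did not pass (adjusted p = 0.104), although both E2 libraries were below both Control libraries. The change was -0.65 without the DPN replicate 1 library and -0.65 without the DPN replicate 2 library. It passed in edgeR on the 4 E2 and Control libraries alone (adjusted p = 0.0186), and why the call differed between settings was not tested.

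FGFRL1, the receptor without a kinase, went its own way among the receptors. Its level was 64.9 and 68.1 CPM with Control, 34.7 and 27.9 with E2, 59.4 and 59.0 with PPT, and 45.0 and 44.1 with DPN. E2 gave the lowest libraries and PPT those nearest to Control, an order that none of the 4 kinase receptors had. FGFRL1 fell with E2 (-1.09, SE 0.09, adjusted p = 9.17e-11) and DPN (-0.58, SE 0.09, adjusted p = 5.63e-06), whereas the change of -0.17 with PPT (95% interval -0.35 to 0.01) did not pass (adjusted p = 0.129).

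KLB was the only member, and the only tested gene of the receptor and klotho list, that moved in opposite directions between the compounds. It had 3733 and 3448 counts with Control, 3310 and 3623 with E2, 1037 and 1198 with PPT, and 1387 and 1392 with DPN. As CPM these were 120.4 and 117 with Control, 148 and 153 with E2, 38.0 and 40.1 with PPT, and 48.0 and 47.8 with DPN, so the groups did not overlap. KLB rose 1.27-fold with E2 (log2 fold change 0.34, SE 0.07, adjusted p = 0.000124), and fell to 0.329 of Control with PPT (-1.60, SE 0.07, adjusted p = 4.9e-16) and to 0.404 with DPN (-1.31, SE 0.07, adjusted p = 2.93e-14). The rise with E2 rests on the scaling: raw counts overlapped, and with library size alone the change was 0.12 (adjusted p = 0.144) where the median of all tested genes was -0.23, against -0.00 under TMM. The summed markers of hepatocytes or hepatoma given above were also higher with E2 and lower with PPT and DPN than with Control. Their part in the values of KLB was not tested.

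FGF11, of the intracellular branch that is known to bind voltage-gated sodium channels, rose from 2.06 and 2.30 CPM with Control to 28.04 and 24.7 with E2. It stayed at 2.13 and 1.17 CPM with PPT and at 2.01 and 2.13 with DPN. In counts, 64 and 68 reads in the Control libraries stood against 627 and 586 with E2, 58 and 35 with PPT, and 58 and 62 with DPN. The E2 libraries were far above all others, and the other 3 groups overlapped. The E2 effect was 12.1-fold (log2 fold change 3.59, SE 0.20, adjusted p = 7.14e-15). PPT gave -0.42 (95% interval -0.93 to 0.09, adjusted p = 0.179) and DPN -0.08 (-0.56 to 0.41, adjusted p = 0.819). The PPT value was -0.89 without the PPT replicate 1 library (adjusted p = 0.0145) and -0.04 without the PPT replicate 2 library (adjusted p = 0.935).

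FGF17, a secreted factor of the FGF8 subfamily known from patterning of the mouse midbrain, was close to the limit of detection outside the E2 group. It had 6 and 3 counts with Control, 86 and 74 with E2, 6 and 4 with PPT, and 11 and 6 with DPN, where 3 counts correspond to 0.0967 to 0.134 CPM depending on the library. The level with E2 was 3.85 and 3.12 CPM, and all other libraries lay between 0.102 and 0.381 CPM. The fitted E2 effect was 22.8-fold (log2 fold change 4.51, 95% interval 3.37 to 5.65, adjusted p = 7.27e-08). Its size rests on 9 reads over the 2 Control libraries, 1 of which is at the floor of 3 counts, and was 4.11 or 5.03 with either of them left out. Since the gene entered the test through its level with E2, the reads of each library given above are the plainer measure. PPT (0.23, -1.37 to 1.83, adjusted p = 0.837) and DPN (0.96, -0.49 to 2.42, adjusted p = 0.275) left no change that was detectable at this depth.

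**Figure D2:**
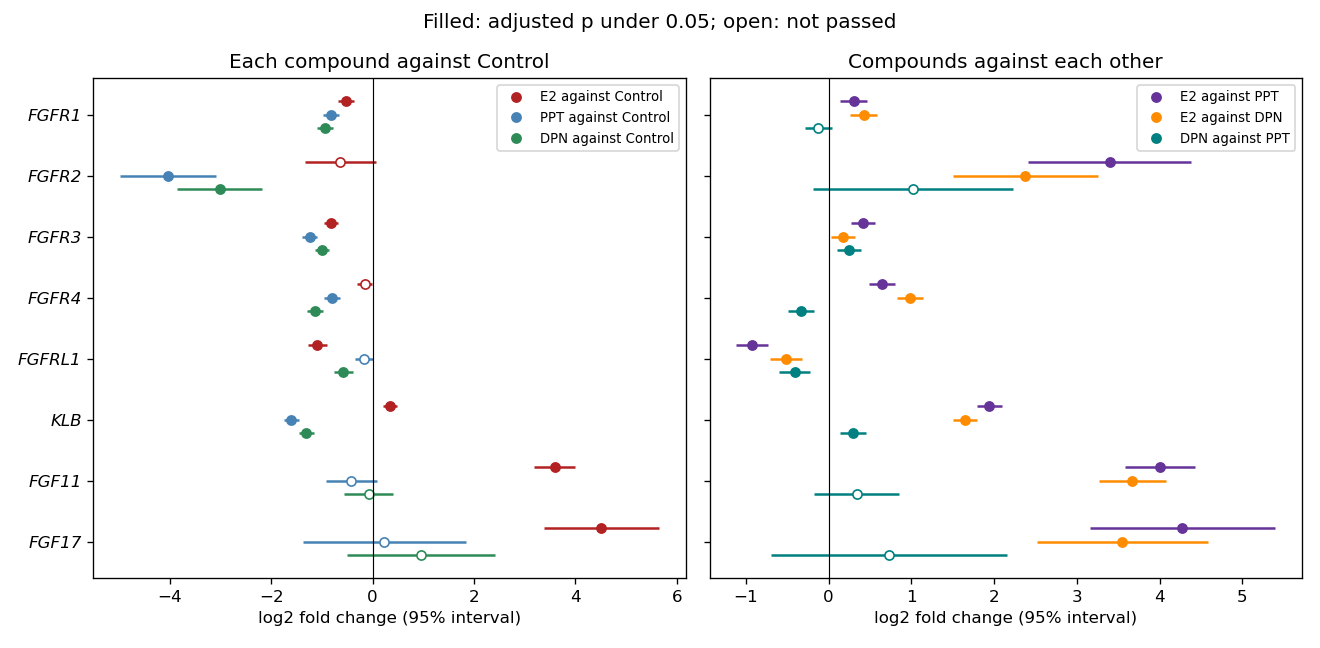
Log2 fold changes (horizontal axes) with 95% intervals from edgeR for the 8 genes, each compound against Control (left) and the compounds against each other (right), filled where the adjusted p was under 0.05. FGFR2 with PPT (-4.03) and FGF17 with E2 (4.51) lie farthest from 0, and KLB is to the right of 0 with E2 (0.34) and to the left with PPT (-1.60) and DPN (-1.31). FGFR2 and FGF17 entered the test through groups where they are high.

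The compounds were then compared directly at their common dose and time, in 3 pairs. E2 gave a higher level than PPT for all members but FGFRL1, so 7 genes were higher and 1 lower, where 30.1% of all tested genes were higher and 32.1% lower. E2 against DPN gave the same 7 higher and 1 lower, where 32.6% of all genes were higher and 31.3% lower. In both pairs the 7 include FGF17, which entered the test through its level with E2, and FGFR2, which entered it through Control and E2. DPN against PPT gave 2 higher, FGFR3 and KLB, and 2 lower, FGFR4 and FGFRL1, where 19.1% of all genes were higher and 18.8% lower.

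The widest gaps between the steroid and the nonsteroidal agonists were those of FGF11, FGF17, FGFR2 and KLB. Relative to PPT, E2 raised FGF11 by 4.01 on the log2 scale (SE 0.20, edgeR adjusted p = 1.46e-15) and relative to DPN by 3.67 (SE 0.20, adjusted p = 5.95e-15). FGF17 was higher by 4.28 (SE 0.54, adjusted p = 1.34e-07) and 3.55 (SE 0.50, adjusted p = 7.23e-07). For FGFR2 the differences were 3.39 (SE 0.48, adjusted p = 7.7e-07) and 2.38 (SE 0.43, adjusted p = 2.32e-05), and the latter was 3.99 without the DPN replicate 1 library (adjusted p = 1.21e-06) and 1.63 without the DPN replicate 2 library (adjusted p = 0.00114). KLB was 3.85-fold higher with E2 than with PPT (log2 1.94, SE 0.07, adjusted p = 2.17e-18) and 3.14-fold higher than with DPN (1.65, SE 0.07, adjusted p = 8.25e-17). These 4 genes also passed the stricter call in both pairs. As FGF17 and FGFR2 entered the test through groups where they are high, their reads in each library given above are the plainer measure.

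The 3 abundant receptors differed less between E2 and the agonists. FGFR4 was higher with E2 by 0.65 (against PPT, SE 0.08, adjusted p = 3.09e-08) and 0.98 (against DPN, SE 0.08, adjusted p = 1.24e-11), and FGFR1 by 0.30 (SE 0.08, adjusted p = 0.00148) and 0.42 (SE 0.08, adjusted p = 3.37e-05). With library size alone the value of FGFR1 against PPT was 0.09 (adjusted p = 0.33). FGFR3 exceeded its PPT level with E2 by 0.42 (SE 0.07, adjusted p = 9.8e-06) and its DPN level by 0.17 (SE 0.07, adjusted p = 0.033), and the direction of the latter turned to -0.02 with library size alone (adjusted p = 0.772). FGFR3 against DPN also failed to pass when any of 4 libraries was left out, with 0.08 without the DPN replicate 2 library (adjusted p = 0.468), 0.10 without the E2 replicate 1 library (adjusted p = 0.297), 0.17 without the Control replicate 1 library (adjusted p = 0.054) and 0.16 without the Control replicate 2 library (adjusted p = 0.065). FGFRL1 was lower with E2 by 0.92 than with PPT (log2 fold change -0.92, SE 0.09, adjusted p = 2.34e-09) and lower than with DPN (-0.51, SE 0.09, adjusted p = 3.46e-05).

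PPT and DPN differed by smaller amounts. With DPN, FGFR3 was higher than with PPT (0.24, SE 0.07, adjusted p = 0.00672) and KLB was higher (0.30, SE 0.07, adjusted p = 0.00267), while FGFR4 (-0.33, SE 0.08, adjusted p = 0.00102) and FGFRL1 (-0.41, SE 0.09, adjusted p = 0.000713) were lower. Without the DPN replicate 1 library, FGFR3 (0.15, adjusted p = 0.211) and FGFR4 (-0.22, adjusted p = 0.0753) no longer passed, which left 2 of the 4 genes. The other 4 did not pass, and their 95% intervals of DPN minus PPT were -0.28 to 0.04 for FGFR1, -0.19 to 2.23 for FGFR2, -0.18 to 0.86 for FGF11 and -0.70 to 2.16 for FGF17. For FGFR2 the sign depended on the DPN libraries, with -0.599 without replicate 1 (adjusted p = 0.591) and 1.76 without replicate 2 (adjusted p = 0.0114).

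Per length, as CPM per kb of merged exons, FGFR3 led in Control cells (81.6 ± 1.12, SD, n = 2), followed by FGFR4 (52.9 ± 2.92), KLB (19.8 ± 0.42), FGFRL1 (15.3 ± 0.54) and FGFR1 (7.72 ± 0.14). FGF11 (0.430 ± 0.03), FGFR2 (0.232 ± 0.01) and FGF17 (0.0449 ± 0.02) were far below, and no neighbours in this order overlapped. With E2, FGFR4 (47.4 ± 2.07) and FGFR3 (46.1 ± 2.90) overlapped at the top, then came KLB (25.04 ± 0.53) and FGFRL1 (7.21 ± 1.11), and FGF11 (5.19 ± 0.47) overlapped with FGFR1 (5.38 ± 0.20) on this length. FGF17 (1.06 ± 0.16) was then above FGFR2 (0.149 ± 0.02). With PPT the order was FGFR3 (34.5 ± 0.14), FGFR4 (30.3 ± 1.33), FGFRL1 (13.6 ± 0.06), KLB (6.51 ± 0.25) and FGFR1 (4.36 ± 0.23), and with DPN it was FGFR3 (40.9 ± 3.76), FGFR4 (24.0 ± 2.86), FGFRL1 (10.3 ± 0.15), KLB (7.99 ± 0.03) and FGFR1 (4.01 ± 0.41). KLB mRNA was thus above FGFRL1 mRNA with Control and E2 and below it with PPT and DPN. The place of FGFR1 hangs on the length used, because its merged exons span 17201 bases and its longest annotated transcript 6216. Per kb of the longest transcript FGFR1 was at 21.4 with Control, above KLB (19.8) and FGFRL1 (18.3), and with E2 it was at 14.9, above FGF11 at 10.2.

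The sum of the 4 kinase receptors per kb of merged exons was 142 ± 1.95 with Control, 99.1 ± 5.19 with E2, 69.2 ± 1.69 with PPT and 69.0 ± 0.52 with DPN. FGFR3 made up 57.3 ± 1.57% of it with Control, 46.6 ± 0.49% with E2, 49.9 ± 1.02% with PPT and 59.3 ± 5.01% in the DPN libraries. The share of FGFR4 was 37.1 ± 1.54%, 47.9 ± 0.42%, 43.8 ± 0.85% and 34.9 ± 4.41% in the same order. E2 and PPT libraries thus held less FGFR3 and more FGFR4 in the receptor sum than the Control libraries, without overlap, and the DPN libraries overlapped with Control. FGFR1 stayed between 5.36% and 6.43% in every library, and FGFR2 between 0.0133% and 0.165%. With the longest transcript as the length the share of FGFR4 was 41.9% with Control and 52.3% with E2, that of FGFR3 was 46.9% and 36.8%, and FGFR1 took 10.5% to 12.5% over the 8 libraries. The ratio of KLB to FGFR4 per kb, computed after the levels were seen, was 0.395 and 0.354 with Control, 0.505 and 0.553 with E2, 0.203 and 0.228 with PPT, and 0.363 and 0.306 with DPN. The coreceptor was thus higher relative to its receptor in the E2 libraries and lower in the PPT libraries than in either Control library, while the DPN libraries overlapped with Control. These shares and ratios are descriptions and were not tested.

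**Figure D3:**
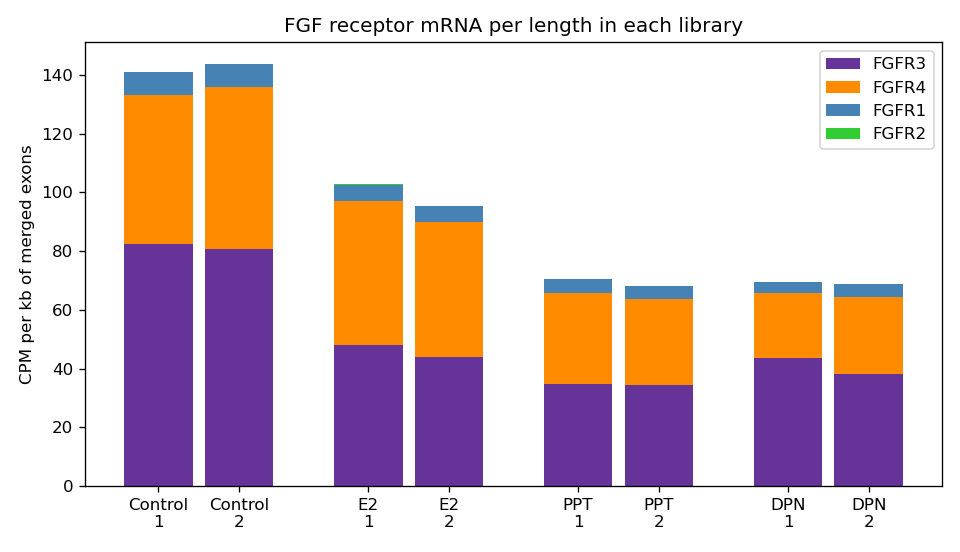
Stacked CPM per kb of merged exons (vertical axis from 0) of FGFR3, FGFR4, FGFR1 and FGFR2 in each of the 8 libraries. The stacks reach about 142 with Control, 99.1 with E2, 69.2 with PPT and 69.0 with DPN, and FGFR2, with at most 0.165% of a stack, is too small to be seen.

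The family around these members was read from lists that were chosen with earlier results of these data known. Of 22 FGF family genes, listed as ligands although FGF11 stays inside the cell, 5 had enough counts to be tested. E2 raised FGF11, FGF17 and FGF5, a secreted factor known for ending hair growth in the mouse, which went from 16.1 ± 0.94 to 31.7 ± 0.28 CPM (log2 fold change 0.98, SE 0.12, adjusted p = 4.43e-08). E2 lowered FGF2, basic FGF, from 2.10 ± 0.00 to 1.24 ± 0.27 CPM (-0.76, SE 0.33, adjusted p = 0.0499). That call was at the threshold, rests on 57 counts in the E2 libraries together and was not examined under other settings. None of the 5 passed with PPT or DPN. Over all tested genes, 30.8% rose and 31.8% fell with E2, 22.9% and 22.8% with PPT, and 24.4% and 24.1% with DPN. FGF17 is among the 5 only through its level in the E2 libraries. FGF19, the hormone that the FGFR4 and KLB pair receives, had 9 counts in the 2 Control libraries together and 0 in the 6 treated libraries, where 0 allows up to 3 counts a library, and it was not tested. Of the 8 receptors and klothos, 7 were tested and KL (α-klotho) had 0 counts everywhere. Outside the members the list held LCTL, a klotho relative, which fell with E2 (-1.24, SE 0.18, adjusted p = 8.08e-07), PPT (-0.71, SE 0.17, adjusted p = 0.000878) and DPN (-1.22, SE 0.17, adjusted p = 1.25e-06). Of the 7 tested receptors and klothos, which are all members except LCTL, 1 rose and 4 fell with E2. With PPT 6 fell and with DPN 7 fell, beside the shares over all tested genes given above. FGFR2 is among the 7 through its level with Control and E2. The median log2 fold change of these 7 was -0.64 for E2, -0.82 for PPT and -1.14 for DPN, where that of all tested genes was -0.00, 0.01 and -0.00.

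Heparan sulfate proteoglycans and the enzymes that build and trim their chains, together with FGF-binding proteins, gave 21 tested genes of 28. With E2, 7 rose and 7 fell, with PPT 3 rose and 9 fell, and with DPN 6 rose and 6 fell (medians 0.00, -0.20 and 0.13). Of all tested genes, 30.8% rose and 31.8% fell with E2, 22.9% and 22.8% with PPT, and 24.4% and 24.1% with DPN, so the counts with E2 and DPN were near those shares. SDC2, a membrane proteoglycan, rose with E2 from 437 ± 19.3 to 850.5 ± 14.3 CPM (0.96, SE 0.06, adjusted p = 6.82e-13), and AGRN, a secreted one, from 163 ± 9.85 to 340.2 ± 15.3 CPM (1.06, SE 0.07, adjusted p = 7.8e-13). HS6ST1, which adds 6-O sulfate to the chains, fell with E2 (-0.49, SE 0.07, adjusted p = 4.1e-07), PPT (-1.38, SE 0.07, adjusted p = 2.24e-15) and DPN (-0.96, SE 0.07, adjusted p = 3.38e-12).

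All 30 adaptors and relays that carry the signal from the receptors were tested. With E2 12 rose and 6 fell, with PPT 14 rose and 6 fell, and with DPN 12 rose and 6 fell (medians 0.08, 0.18 and 0.12), beside 30.8%, 22.9% and 24.4% of all tested genes that rose and 31.8%, 22.8% and 24.1% that fell. The adaptor SHC1 rose from 85.6 ± 4.71 CPM to 187 ± 12.2 with PPT (1.13, SE 0.07, adjusted p = 3.77e-13) and 236 ± 4.24 with DPN (1.46, SE 0.07, adjusted p = 2.18e-15), and its value with E2 was -0.05 (adjusted p = 0.555). MAP2K1, the kinase that switches on ERK, rose with E2 (1.26, SE 0.07, adjusted p = 1.32e-14), DPN (0.53, adjusted p = 4.78e-07) and PPT (0.18, adjusted p = 0.0415), and so did SOS1, which loads RAS with GTP (0.91, 0.71 and 0.44).

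Of 16 genes listed as feedback inhibitors, 15 were tested. With E2 5 rose and 6 fell, with PPT 5 rose and 3 fell, and with DPN 5 rose and 3 fell (medians 0.00, 0.35 and 0.09). The list also held FLRT3, LGALS1 and LGALS3, which are not dedicated inhibitors and are among the genes that rose with PPT and DPN. With E2, FLRT3 and LGALS1 rose and LGALS3 fell. The shares over all tested genes were 30.8% higher and 31.8% lower with E2, 22.9% and 22.8% with PPT, and 24.4% and 24.1% with DPN. SPRY4, an inhibitor of the RAS-ERK cascade, fell from 87.6 ± 3.82 to 32.6 ± 2.85 CPM with E2 (-1.43, SE 0.08, adjusted p = 1.32e-14), and rose with PPT (0.58, SE 0.07, adjusted p = 2.14e-07) and DPN (0.69, SE 0.07, adjusted p = 1.08e-08). DUSP5, a phosphatase that turns off ERK in the nucleus, rose with all 3 compounds, by 0.93 with E2 (adjusted p = 1.08e-09), 1.41 with PPT (adjusted p = 2.82e-13) and 2.73 with DPN (adjusted p = 3.87e-19). LGALS3, a sugar-binding lectin rather than a dedicated inhibitor, fell with E2 (-0.37, adjusted p = 0.00509) and rose with PPT (2.24, adjusted p = 2.24e-16) and DPN (2.27, adjusted p = 1.68e-16).

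Among 12 genes known to respond to ERK, 4 rose and 7 fell with E2, 1 rose and 7 fell with PPT, and 1 rose and 8 fell with DPN (medians -0.20, -0.43 and -0.48), where 30.8% of all tested genes rose and 31.8% fell with E2, 22.9% and 22.8% with PPT, and 24.4% and 24.1% with DPN. The transcription factor EGR1 fell from 122 ± 0.62 to 17.0 ± 0.97 CPM with E2 (-2.84, SE 0.08, adjusted p = 1.13e-20) and to 90.7 ± 1.91 and 90.9 ± 0.44 with PPT and DPN (-0.42 in each, adjusted p = 1.71e-05 and 1.78e-05). ETV5, a transcription factor of the ETS family, fell with E2 (-1.03, adjusted p = 2.95e-12), PPT (-0.42, adjusted p = 2.5e-05) and DPN (-0.22, adjusted p = 0.0148). FOS, a subunit of AP-1, rose with E2 (0.56, adjusted p = 0.000186) and fell with PPT (-1.48, adjusted p = 3.73e-10) and DPN (-0.54, adjusted p = 0.000611).

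On the bile acid axis, 10 of 13 genes were tested, and 2 rose and 4 fell with E2, 1 rose and 6 fell with PPT, and 1 rose and 4 fell with DPN (medians -0.24, -0.80 and -0.19). These counts include KLB and FGFR4 themselves, and over all tested genes 30.8% rose and 31.8% fell with E2, 22.9% and 22.8% with PPT, and 24.4% and 24.1% with DPN. Besides KLB and FGFR4 the smallest p belonged to SLC51A, a subunit of the transporter that exports bile acids, which rose from 6.50 ± 0.25 to 27.7 ± 2.31 CPM with E2 (2.09, SE 0.13, adjusted p = 1.03e-13) and also with PPT (0.69, SE 0.13, adjusted p = 0.000126) and DPN (1.23, SE 0.13, adjusted p = 1.19e-08). CYP7A1, the rate-limiting enzyme of bile acid synthesis, is named for its role and after its values were seen, and had 36 counts in the Control libraries together, 30 with E2, 1 with PPT and 13 with DPN.

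For FGF11, partners of the intracellular FGFs were read as well, with 7 of 8 tested. With E2 4 rose and none fell, with PPT 1 rose and 4 fell, and with DPN 2 rose and 2 fell (medians 0.84, -0.38 and -0.13). Over all tested genes the shares that rose and fell were 30.8% and 31.8%, 22.9% and 22.8%, and 24.4% and 24.1% in that order. The sodium channel gene SCN9A rose with E2 from 49.3 ± 3.97 to 153 ± 3.81 CPM (1.64, SE 0.08, adjusted p = 3.7e-16) and with DPN (0.33, adjusted p = 0.00101), and fell with PPT (-0.38, adjusted p = 0.000277). SCN1A rose with E2 (0.84, adjusted p = 3.82e-06) and fell with PPT (-2.58, adjusted p = 4.12e-13) and DPN (-1.79, adjusted p = 1.66e-10). MAPK8IP2, a scaffold of the JNK cascade, rose with PPT (2.30, adjusted p = 1.5e-10) and DPN (1.30, adjusted p = 5.55e-06), and its value with E2 was 0.16 (adjusted p = 0.55).

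**Figure D4:**
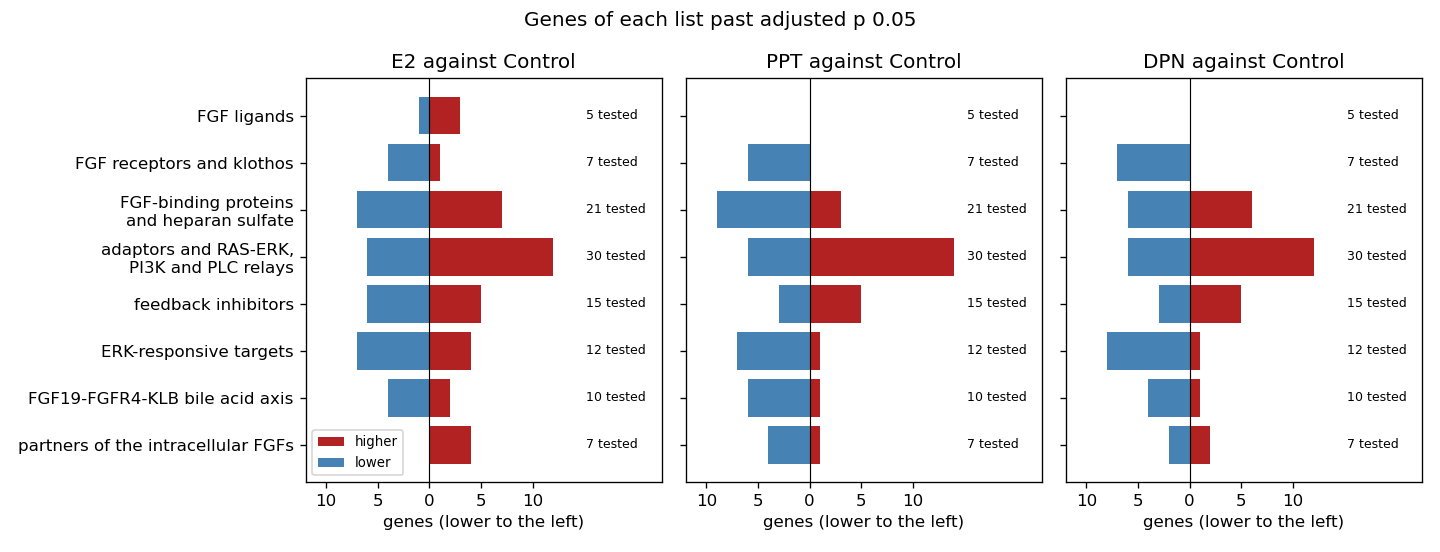
Number of genes in each list (horizontal axis, lower to the left and higher to the right of 0) past an adjusted p of 0.05 with E2, PPT and DPN against Control, with the number tested beside each row. Of 5 tested genes on the FGF ligand list, which include the intracellular FGF11, 3 were higher and 1 lower with E2. None of them passed with PPT or DPN. The lower one, FGF2, was at the threshold (edgeR adjusted p = 0.0499). All 7 tested receptors and klothos were lower with DPN, and all of them but LCTL are members already counted. Of all tested genes, 30.8% were higher and 31.8% lower with E2, 22.9% and 22.8% with PPT, and 24.4% and 24.1% with DPN.

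Some members lie close to other genes, and the sources used here do not say whether reads were counted by strand. DMTN, which codes for a cytoskeletal protein, lies 186 bases from FGF17 on the same strand and rose with E2 from 22.8 ± 0.59 to 82.6 ± 4.01 CPM (1.86, SE 0.09, adjusted p = 1.72e-15). CHRNB1 and TMEM102 lie 124 and 594 bases from FGF11 on the same strand and rose with E2 by 0.64 (SE 0.11, adjusted p = 8.51e-06) and 0.77 (SE 0.24, adjusted p = 0.00728), from 19.1 ± 0.24 to 29.9 ± 0.78 and from 3.54 ± 0.74 to 6.07 ± 1.85 CPM. The neighbours of both genes thus rose with E2 too, by less on the log2 scale. The part of these neighbours in the counts of FGF11 and FGF17 was not tested. RPL9, a ribosomal protein gene on the opposite strand 1054 bases from KLB, rose with E2 (0.41, SE 0.06, adjusted p = 1.52e-06) and did not pass with PPT (0.04, adjusted p = 0.596) or DPN (0.13, adjusted p = 0.0737). LETM1, 2607 bases from FGFR3 on the opposite strand, fell with E2 (-0.42, adjusted p = 6.77e-05) and DPN (-0.32, adjusted p = 0.00158). LETM2, which overlaps FGFR1 on the opposite strand, was at only 0.913 to 2.36 CPM in the group means.

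In the GENCODE 44 annotation of GRCh38, FGFR3 lies on chromosome 4 from 1793293 to 1808872, FGFRL1 on chromosome 4 from 1009936 to 1026898 and KLB on chromosome 4 from 39406930 to 39451533, all on the plus strand. FGFR2 lies on chromosome 10 from 121478332 to 121598458 on the minus strand, FGFR4 on chromosome 5 from 177086905 to 177098144 and FGF11 on chromosome 17 from 7438273 to 7444937, these 2 on the plus strand. FGFR1 lies on chromosome 8 from 38400215 to 38468834 on the minus strand and FGF17 on chromosome 8 from 22042398 to 22048809 on the plus strand. The counts are summed over all exons of a gene, so splice forms were not resolved.

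The genes whose profiles were most like each member were those with the smallest Euclidean distance between centred log2 CPM values over the 8 libraries, among about 10727 genes with a mean of at least 5 CPM. FGFRL1 had the closest matches, TIMM23 (distance 0.158), PPIF (0.176) and MED27 (0.190), and TIMM23 had log2 fold changes of -1.11, -0.17 and -0.67 with E2, PPT and DPN. FGFR1 lay nearest to FANCG (0.191), TSPAN33 (0.259) and NUP85 (0.264), FGFR4 to DDIT4 (0.208), LMNB2 (0.266) and FN3K (0.271), and FGFR3 to SMLR1 (0.268), WASF3 (0.291) and CDK2 (0.298). KLB lay nearest to DKK1 (0.326), KANK4 (0.331) and SCARA3 (0.382), and DKK1 had log2 fold changes of 0.45, -1.58 and -1.33. FGF11 lay nearest to SLCO4A1 (0.747), FSTL3 (0.858) and GPR157 (0.897), and FGF17 to GPRC5A (0.778), LOXL2 (0.958) and SYBU (0.971). FGFR2 had no near match, with SSC4D (2.19), ACSM2B (2.27) and BCAM (2.35), all of which had log2 fold changes above 0 with E2. These distances are descriptions over the same 8 libraries and carry no test.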

How the data were processed

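Poly(A) RNA of HepG2 cells was made into strand-specific libraries and sequenced as single-end 50 bp reads, which the authors aligned to the GRCh38.p10 build in a pipeline of Illumina's. The deposited values are raw read counts per Entrez gene, 1 file per library. The aligner, the counter and the use of strand are not given in the sources used here. The labels speak of triplicates, and 2 libraries per group were analysed here. Symbols were matched for 99.4% of 26235 genes.

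Counts were analysed in R 4.3.3 with edgeR 4.0.16 (filterByExpr, minimum count 10 and total 15, TMM scaling, glmQLFit on all 8 libraries with treatment as the only term, two-sided quasi-likelihood F tests, Benjamini-Hochberg adjustment over 15460 genes for each of 6 contrasts). The biological coefficient of variation was 6.80%. A 95% interval comes from the fitted standard error. The scripts were tested on simulated data with known changes. Same-numbered libraries did not deviate together (r from -0.06 to 0.02), so the numbers were not treated as pairs.

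The 8 genes and all lists were chosen with earlier results of these data known. From each list, up to 3 genes with the smallest p over the contrasts with Control were named, and for each member the 3 nearest profiles (prior count 2) and annotated genes within 5 kb. Alternatives were RLE, upper-quartile and no scaling factors, no filter or at least 1 CPM in 2 libraries, DESeq2 1.42.0, fits of 4 libraries, the stricter threshold, a replicate block, the longest transcript as length and leaving out each library. Intervals and floors cover these libraries and counting error only.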

Additional observations from a re-analysis of the deposited data

Results flagged for a closer look

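KLB rose with E2 and fell with PPT and DPN against the same Control libraries, and the difference between the compounds was tested directly in edgeR. The log2 fold change was 1.94 for E2 against PPT (SE 0.07, adjusted p = 2.17e-18) and 1.65 for E2 against DPN (SE 0.07, adjusted p = 8.25e-17). In TMM-scaled CPM both E2 libraries were above, and all 4 PPT and DPN libraries below, both Control libraries. The rise with E2 against Control rests on that scaling: raw counts overlapped, and library size alone gave 0.12 in edgeR (adjusted p = 0.144).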

How the results depend on the processing

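Over 812 values under alternatives, 781 kept their direction and side of the threshold, 10 lost and 16 gained the call, and 5 turned, the latter values being near 0 or from few reads. These include, for each library left out, contrasts that do not hold that library, where the log2 fold change is nearly fixed in advance. FGFR3 for PPT against Control was -1.24 without E2 replicate 1 and without E2 replicate 2. The 781 thus overstates how far single libraries were tested. Beyond the receptor shares, which move with the length used, the counts of changed genes, both directions together, stayed within 1.5 times in every contrast except under the stricter threshold, where 2 (E2), 2 (PPT) and 1 (DPN) remained against Control, 4 and 4 for E2 against PPT and DPN, and 0 for DPN against PPT, and except for DPN against PPT when a library was left out, which gave 2 to 5. With E2 the lowered genes went from 3 to 5 with library size alone, no filter, edgeR on 4 libraries or without DPN replicate 1. The values that turned were FGFR3 for E2 against DPN with library size alone (-0.0244), FGFR2 for DPN against PPT (-0.599 to 1.76 over left-out libraries), FGF11 for DPN against PPT (-0.0389 to 0.817) and FGF17 for PPT against Control (-0.145 to 0.761, below 0 without Control replicate 2 or PPT replicate 1). The cause was not tested. The replicate block left the count with E2 at 6 and changed no call in any contrast. Library size alone moved the median of all genes to -0.23, -0.22 and -0.16 in the contrasts of E2 with Control, PPT and DPN. FGFR3 for E2 against DPN did not pass without a filter (0.13, adjusted p = 0.125) or in DESeq2 on 4 libraries (0.14, adjusted p = 0.144). FGFR4 with E2 passed under several settings, with -0.38 (adjusted p = 6.59e-05) for library size alone and -0.21 (adjusted p = 0.0073) without a filter. Depth limits FGF17 outside E2 and FGFR2 with PPT and DPN, where libraries held 3 to 26 reads of the gene.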
